A study of Mus musculus with 18 samples.

Results

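The 10 genes described here carry out heme breakdown and iron handling in mouse macrophages: *Hmox1*, *Hmox2*, *Blvra*, *Blvrb*, *Fth1*, *Ftl1*, *Slc40a1*, *Tfrc*, *Slc11a1* and *Slc11a2*. They were chosen by symbol, as 10 of the 56748 genes in the count file, and all 10 were found under those symbols. Of the 56748 genes, 27701 had a count and 13691 passed the filter on low counts, and all 10 heme and iron genes were among those tested.

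RNA was sequenced from RAW264.7 cells, a mouse macrophage line, under 6 conditions with 3 libraries each. Control cells were kept in medium alone, which the study places in its 12 h design. TBHQ cells received 5 µM tert-butylhydroquinone, a phenolic food antioxidant dissolved in DMSO, and were collected after 4 h. LPS cells received 0.1 µg/mL lipopolysaccharide, a bacterial cell wall component, and PIC cells received 20 µg/mL polyinosinic-polycytidylic acid, a double-stranded RNA mimic, both for 12 h. LPS + TBHQ and PIC + TBHQ cells were exposed to TBHQ for 4 h and then to the same stimulus for 12 h. The study set out to learn how TBHQ changes the response of macrophages to a bacterial or viral challenge. TBHQ cells were collected at another time than the others, so that time and treatment cannot be told apart where TBHQ alone is set beside them. No solvent control is named for the RNA samples. TBHQ and DMSO therefore cannot be told apart where cells with and without TBHQ are compared. The study calls the 3 libraries of a condition biological replicates, but the labels name no separate cultures, and p-values then measure the spread between these samples. RAW264.7 cells are 1 immortal line, and they carry the form of *Slc11a1* whose protein does not work.

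The libraries held between 14423390 and 18851626 counts. Levels are given as FPKM (fragments per kilobase of gene, scaled by library) as the authors deposited them. These hold a further factor for each library beyond gene length and total counts, from 0.943 to 0.951 in control and from 1.112 to 1.116 in PIC, so that FPKM and shares of counts can differ in direction. Log2 fold changes (log2FC) come from edgeR's quasi-likelihood test on the counts, with the standard error (SE) over n = 3 libraries per condition, and adjusted p is its Benjamini-Hochberg value over all 13691 genes tested. A gene was called when adjusted p was below 0.05, with no limit on the fold change.

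Macrophages take up old red cells and recycle their iron. Heme oxygenase opens heme to biliverdin, carbon monoxide and iron, and biliverdin reductase turns biliverdin into bilirubin. The freed iron is stored in ferritin, a shell of heavy and light chains, or leaves through ferroportin, the product of *Slc40a1*. Iron enters with transferrin through the receptor that *Tfrc* encodes, and *Slc11a1* and *Slc11a2* encode proton-coupled transporters that move metal ions out of phagosomes and endosomes. *Hmox1*, both ferritin genes and *Slc40a1* are known targets of NRF2, the factor that *Nfe2l2* encodes, while iron regulatory proteins act on the transcripts of ferritin, ferroportin and the transferrin receptor.

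The libraries were checked against markers of macrophages and of other cells. All 10 macrophage markers were in the file and 9 of them exceeded 3 counts in every library. *Lyz2*, the lysozyme gene, was the most abundant of them, with a mean of 4020 FPKM and a range of 3400 to 4650. No marker of fibroblasts, epithelium, T cells, B cells or neutrophils exceeded 3 counts in every library. The hemoglobin genes *Hba-a2*, *Hbb-bs* and *Hbb-bt* were at 0 throughout, as was *Epb42*, while *Hba-a1* and *Slc4a1* reached 2 counts and *Klf1* had 1 to 8. Of the 5 neutrophil markers *S100a8* (3 to 67 counts) carried nearly all of the sum, *Mpo* and *Elane* reached 3 and 4 counts, and the defining markers *Ly6g* and *S100a9* were at 0 in every library. The sum was 0.996, 0.858 and 0.855 FPKM in the control libraries, 2.94, 3.71 and 3.14 in LPS, and 5.07, 6.01 and 5.70 in PIC. TBHQ cells had 0.507, 0.282 and 0.592, LPS + TBHQ cells 3.88, 2.03 and 4.69, and PIC + TBHQ cells 2.81, 4.06 and 4.60. The part of this in the results was not tested. In bulk RNA, a change in the number of cells and a change in RNA per cell cannot be told apart.

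Set against control, most of the 10 genes differed in every condition. TBHQ cells had 5 genes higher and 2 lower, where 14.2% of all genes tested were called higher and 14.8% lower. In LPS cells 8 were higher and 1 lower, against 24.0% and 24.1% of all genes. PIC cells had 8 higher and 0 lower, against 28.6% and 30.1%. For LPS + TBHQ 7 were higher and 1 lower, against 21.2% and 22.5%. PIC + TBHQ cells also had 7 higher and 1 lower, against 26.4% and 26.0%. These 5 comparisons share the control libraries. The count of higher genes exceeded the background in each of them, and the count of lower genes was near or below it. At an unadjusted p below 0.05, 8 of the 10 genes differed with PIC, each of them higher. The split with PIC depended on scaling. With libraries scaled by total counts, *Hmox2* (log2FC -0.26, adjusted p = 1.72e-04), *Blvra* (-0.28, adjusted p = 1.33e-07) and *Tfrc* (-0.13, adjusted p = 3.66e-04) were called lower with PIC and *Slc40a1* was no longer called. With PIC + TBHQ the same scaling called *Hmox2* (-0.16, adjusted p = 0.0136) and *Blvra* (-0.21, adjusted p = 2.51e-05) lower. It also called 6635 of all 13691 genes lower and 2379 higher with PIC, and 5515 lower and 2364 higher with PIC + TBHQ.

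**Figure D1:**
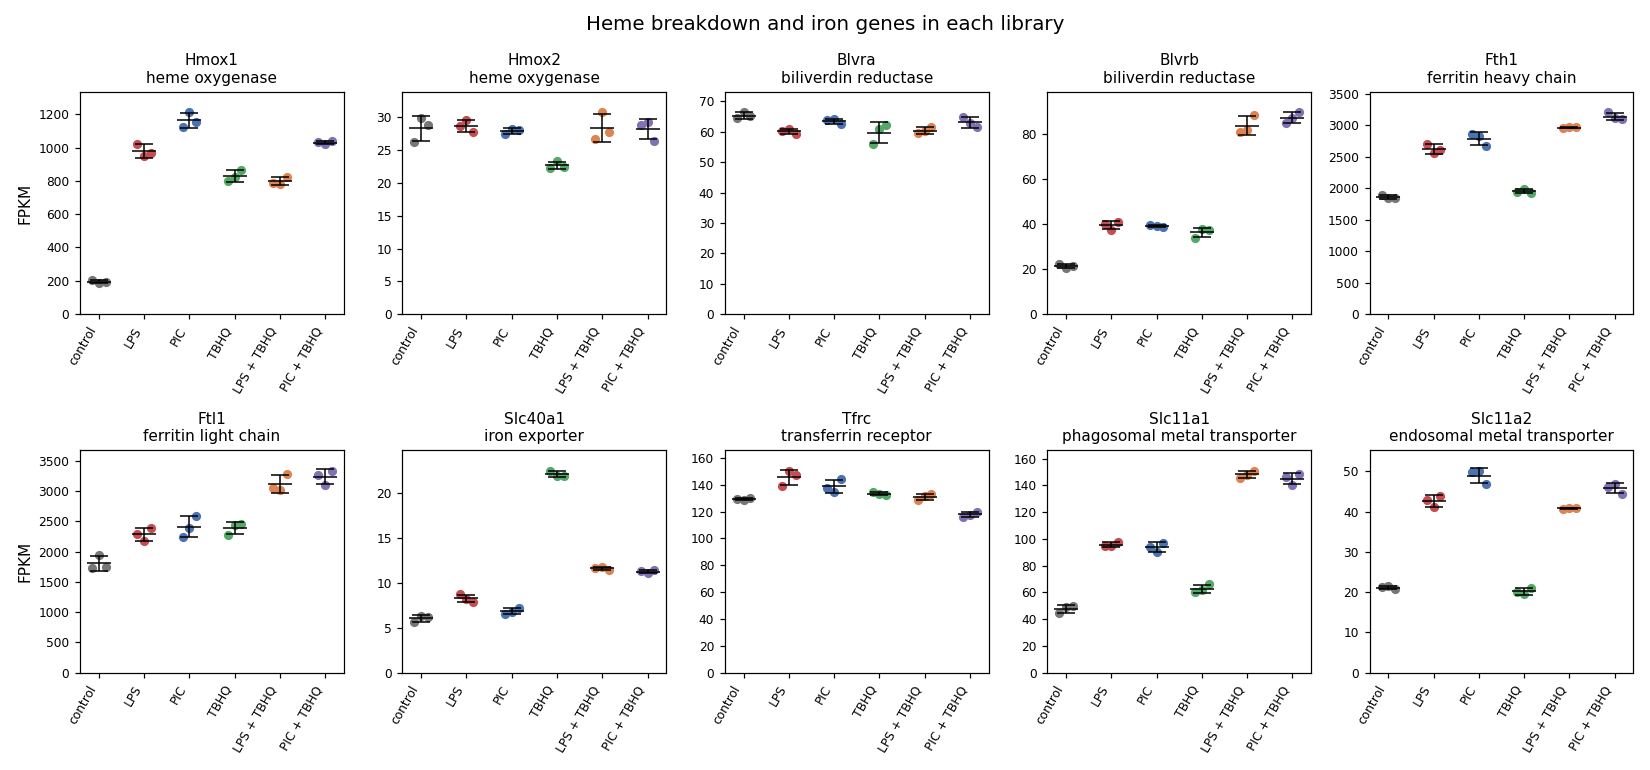
FPKM of each of the 10 genes (vertical axes, from 0) in the 18 libraries, by condition on the horizontal axes. Points are libraries, the middle bar is the mean and the outer bars are 1 SD (n = 3); *Hmox1* lies between 187 and 202 FPKM in control and at 784 or more elsewhere, and *Slc40a1* is highest with TBHQ alone.

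*Hmox1* (ENSMUSG00000005413, chromosome 8, 75820249 to 75827217, + strand, in the files' coordinates) encodes the inducible heme oxygenase. Its level was 202, 187 and 193 FPKM in the control libraries, 797, 825 and 866 in TBHQ, 1024, 948 and 967 in LPS, and 1126, 1213 and 1152 in PIC. It was 785, 784 and 826 in LPS + TBHQ and 1034, 1019 and 1038 in PIC + TBHQ. Every treated library lay far above the controls. The highest mean, 1164 ± 44.5 FPKM (SD, n = 3) with PIC, was followed by PIC + TBHQ and LPS, whose ranges overlapped, then by TBHQ and LPS + TBHQ, which also overlapped, and last by control at 194 ± 7.74 (SD, n = 3).

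All 3 agents alone were thus accompanied by a higher *Hmox1* level. Log2FC against control was 2.09 (SE 0.047, adjusted p = 3.46e-31) with TBHQ, 2.33 (SE 0.046, adjusted p = 1.35e-33) with LPS and 2.57 (SE 0.046, adjusted p = 3.14e-35) with PIC. The combined conditions were no higher than the stimuli alone. LPS + TBHQ was 2.03 (SE 0.042) above control and PIC + TBHQ 2.40 (SE 0.035). Against the stimulus alone, *Hmox1* was lower in all 3 pretreated libraries, with a log2FC of -0.30 (SE 0.040, adjusted p = 1.97e-08) in LPS and -0.165 (SE 0.033, adjusted p = 2.90e-04) in PIC. PIC cells had more *Hmox1* than LPS cells, by a log2FC of 0.24 (SE 0.044, adjusted p = 1.30e-06) without TBHQ and 0.37 (SE 0.027, adjusted p = 1.39e-10) with it. As a mean share of counts, *Hmox1* was at 0.17% in LPS, 0.183% in PIC and 0.171% in PIC + TBHQ. These conditions thus lay closer together by share than in FPKM.

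*Hmox2* (ENSMUSG00000004070, chromosome 16, 4544225 to 4584606, + strand) encodes the second heme oxygenase, generally regarded as constitutive. It lay between 26.2 and 29.9 FPKM in the control libraries and at 22.3, 23.3 and 22.4 in TBHQ. The TBHQ libraries were below all others, while the other 5 conditions overlapped from neighbour to neighbour. *Hmox2* fell by 0.32 log2FC with TBHQ (SE 0.060, adjusted p = 2.70e-05). Its log2FC was 0.010 with LPS (95% interval -0.10 to 0.13) and -0.039 with PIC (-0.15 to 0.079), and it passed in none of the 7 remaining comparisons. The gene *Cdip1* overlaps it on the opposite strand and had 492 to 669 counts, up to 79.3% of the *Hmox2* count. The study describes its libraries as strand-specific, while the labels name both directional and other libraries. Whether counting used the strand was not given in the sources used here, so the *Hmox2* values are uncertain. The ratio of *Hmox1* to *Hmox2* FPKM was 6.88 in control and between 28.2 (LPS + TBHQ) and 41.7 (PIC) in the treated conditions.

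The 2 biliverdin reductase genes differed in their patterns. *Blvra* (ENSMUSG00000001999, chromosome 2, 126912585 to 126939004, + strand), whose enzyme makes bilirubin IX-alpha, spanned only 56.0 to 66.5 FPKM across all 18 libraries. Its control libraries, at 64.5, 66.5 and 65.1 FPKM, were above the TBHQ libraries at 56.0, 60.9 and 62.4. *Blvra* fell by 0.13 log2FC with TBHQ (SE 0.048, adjusted p = 0.0104), by 0.13 with LPS (SE 0.019, adjusted p = 0.00786) and by 0.12 with LPS + TBHQ (SE 0.020, adjusted p = 0.0109). Each of these calls was lost when a single library was left out. Without control library 2 adjusted p was 0.0534 for TBHQ and 0.0527 for LPS + TBHQ, without TBHQ library 1 it was 0.130 for TBHQ, without LPS library 3 it was 0.0587 for LPS, and without LPS + TBHQ library 1 it was 0.0505 for LPS + TBHQ. The call for LPS + TBHQ was also lost with no filter on low counts (adjusted p = 0.0685). PIC did not pass, and the difference between PIC and LPS was 0.069 (adjusted p = 0.218).

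*Blvrb* (ENSMUSG00000040466, chromosome 7, 27147403 to 27165569, + strand) encodes the second biliverdin reductase, also known as flavin reductase. It stood at 22.1, 20.4 and 21.5 FPKM in control, 33.9, 37.6 and 37.2 in TBHQ, 40.1, 37.4 and 40.7 in LPS, and 39.8, 39.3 and 38.8 in PIC. It reached 81.0, 81.8 and 88.5 in LPS + TBHQ and 84.7, 87.3 and 89.7 in PIC + TBHQ. The combined conditions thus lay above every library that received 1 agent, and the single agents above control. *Blvrb* rose by 0.76 log2FC with TBHQ (SE 0.057, adjusted p = 8.68e-15), 0.88 in LPS (SE 0.048, adjusted p = 2.41e-17) and 0.87 with PIC (SE 0.035, adjusted p = 1.89e-17). TBHQ pretreatment raised it further, by 1.09 over LPS (SE 0.054, adjusted p = 2.12e-20) and 1.16 over PIC (SE 0.027, adjusted p = 5.13e-21). These 2 steps differed by 0.076 (95% interval -0.06 to 0.21, adjusted p = 0.650). The ratio of *Blvrb* to *Blvra* FPKM went from 0.326 in control to 0.656 with LPS and 1.39 with LPS + TBHQ as with PIC + TBHQ.

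Ferritin transcripts were among the most abundant in every condition. *Fth1* ranked 6 to 8 and *Ftl1* 5 to 8 by mean FPKM. *Fth1* took 0.680% of all counts in control and 1.03% with LPS + TBHQ, and *Ftl1* took 0.255% and 0.419%. The gene length behind FPKM exceeds that of a coding transcript to different degrees, which bears on any ratio of FPKM between genes. It is 3469 bases for *Fth1* (Fth1-201, 929 bases), 1340 for *Ftl1* (Ftl1-201, 968), 9000 for *Slc40a1* (Slc40a1-201, 3370) and 6185 for *Tfrc* (Tfrc-201, 4890).

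*Fth1* (ENSMUSG00000024661, chromosome 19, 9957962 to 9962462, + strand), the heavy chain that oxidizes iron for storage, was at 1885, 1838 and 1846 FPKM in control and at 1932, 1982 and 1925 in TBHQ. It was at 2697, 2550 and 2606 in LPS, 2862, 2827 and 2661 in PIC, 2953, 2963 and 2965 in LPS + TBHQ, and 3205, 3109 and 3088 in PIC + TBHQ. In FPKM only LPS and PIC overlapped among neighbours in this order. As shares of counts, LPS + TBHQ (1.03% to 1.04%) and PIC + TBHQ (1.02% to 1.05%) overlapped as well. *Fth1* rose by 0.49 log2FC with LPS (SE 0.024, adjusted p = 1.82e-17) and 0.57 with PIC (SE 0.036, adjusted p = 1.15e-19), and TBHQ added 0.18 to each (SE 0.021, adjusted p = 3.74e-06 in LPS; SE 0.038, adjusted p = 1.48e-06 in PIC). TBHQ alone gave 0.066 (SE 0.019, adjusted p = 0.0624), although all 3 libraries were above control. That value passed under DESeq2 (adjusted p = 0.0241), with the compared conditions only (0.0270), with RLE scaling (0.0432) and with no filter on low counts (0.0461). It also passed with the replicate number as a block (0.0409) and without control library 1 (0.0425).

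*Ftl1* (ENSMUSG00000050708, chromosome 7, 45107368 to 45109308, - strand), the light chain that helps form the iron core, was higher with TBHQ alone as well as with the stimuli. Its level was 1721, 1938 and 1750 FPKM in control, 2274, 2431 and 2454 in TBHQ, 2283, 2180 and 2383 in LPS, and 2243, 2392 and 2592 in PIC. It was 3053, 3013 and 3282 in LPS + TBHQ and 3271, 3099 and 3336 in PIC + TBHQ. In FPKM the 3 single agents overlapped with each other, above control and below both combinations. As shares of counts, TBHQ (0.322% to 0.345%) lay above LPS (0.291% to 0.315%) and PIC (0.27% to 0.312%). By share, PIC also overlapped with control (0.243% to 0.274%). *Ftl1* rose by 0.40 log2FC with TBHQ (SE 0.063, adjusted p = 4.29e-09), 0.33 in LPS (SE 0.064, adjusted p = 5.74e-08) and 0.40 with PIC (SE 0.080, adjusted p = 5.84e-10). The mean share of counts was 0.255% in control, 0.336% with TBHQ, 0.302% with LPS and 0.29% with PIC. By share, PIC thus lay closer to control than TBHQ did. Pretreatment added 0.45 in LPS (SE 0.053, adjusted p = 3.09e-10) and 0.44 in PIC (SE 0.068, adjusted p = 4.82e-10). The ratio of *Ftl1* to *Fth1* FPKM was accordingly 0.972 in control, 1.23 in TBHQ, 0.872 in LPS, 0.868 in PIC, 1.05 in LPS + TBHQ and 1.03 with PIC + TBHQ.

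Reads of near-identical ferritin copies could have been split between genes, and the ferritin values are uncertain to that extent. Of 17 genes whose names start with Fth or Ftl, 8 had a count in any library. The copies held at most 0.00443% of the *Fth1* count and 2.46% to 3.27% of the *Ftl1* count. With the copies added, the *Fth1* value for TBHQ passed the threshold (log2FC 0.070, adjusted p = 0.0444). That setting also shifted the values of all genes, with a median log2FC of 0.004 for TBHQ, and the change cannot be put down to the copies.

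*Slc40a1* (ENSMUSG00000025993, chromosome 1, 45947228 to 45965683, - strand) encodes ferroportin, the only known cellular exporter of iron. It was the one gene of the 10 with its highest level in TBHQ alone. The level was 5.60, 6.26 and 6.19 FPKM in control, 22.4, 21.9 and 21.9 in TBHQ, 8.70, 8.14 and 7.86 in LPS, and 6.50, 6.76 and 7.21 in PIC. It was 11.6, 11.8 and 11.4 in LPS + TBHQ and 11.3, 11.0 and 11.4 in PIC + TBHQ. In FPKM no neighbours in the order TBHQ, LPS + TBHQ, PIC + TBHQ, LPS, PIC and control overlapped, although the 2 combinations lay close together. As shares of counts, PIC (0.00526% to 0.00583%) overlapped with control (0.0053% to 0.00596%). The mean share was 0.00551% with PIC and 0.00572% in control, the other way round from FPKM.

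*Slc40a1* rose by 1.87 log2FC with TBHQ (SE 0.052, adjusted p = 7.45e-27) and by 0.44 with LPS (SE 0.065, adjusted p = 2.09e-09). Its difference of 0.17 with PIC (SE 0.066, adjusted p = 0.00517) was less secure: it was 0.12 without control library 1 (adjusted p = 0.0654) and -0.052 when libraries were scaled by total counts (adjusted p = 0.386). The log2FC of PIC against LPS was -0.28 (SE 0.059, adjusted p = 3.80e-05). Pretreated cells were higher than cells with the stimulus alone, by 0.49 in LPS (SE 0.043, adjusted p = 1.88e-10) and 0.73 in PIC (SE 0.045, adjusted p = 1.50e-14). The step in PIC exceeded the step in LPS by 0.23 (SE 0.062, 95% interval 0.10 to 0.37), which did not pass over all genes (adjusted p = 0.0646). It passed without PIC library 3 (0.26, adjusted p = 0.0428) and with total counts (0.28, adjusted p = 0.0202).

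*Tfrc* (ENSMUSG00000022797, chromosome 16, 32427738 to 32451612, + strand), the receptor for transferrin-bound iron, moved little. The control libraries were at 129, 129 and 130 FPKM, LPS at 139, 150 and 147, PIC at 137, 134 and 144, TBHQ at 134, 133 and 132, LPS + TBHQ at 128, 131 and 133, and PIC + TBHQ at 116, 117 and 120. PIC + TBHQ was below all other conditions, and LPS and PIC overlapped at the top. As a share of counts, *Tfrc* was at 0.0846% in control and 0.0770% with PIC, the other way round from FPKM. With PIC + TBHQ the share was 0.0692%, a larger fall from control than in FPKM. *Tfrc* rose by 0.16 log2FC with LPS (SE 0.036, adjusted p = 6.80e-05) and fell by 0.14 with PIC + TBHQ (SE 0.014, adjusted p = 2.84e-04). Against the stimulus alone, pretreated cells had -0.16 in LPS (SE 0.039, adjusted p = 3.09e-04) and -0.23 in PIC (SE 0.032, adjusted p = 7.43e-07), and these steps differed by -0.070 (95% interval -0.16 to 0.021, adjusted p = 0.524). Its log2FC with PIC, 0.083 (SE 0.030, adjusted p = 0.0257), was lost without control library 1 (0.081, adjusted p = 0.0531), control library 2 (0.078, adjusted p = 0.0702) or PIC library 3 (0.068, adjusted p = 0.0867). Scaled by total counts, the same value was -0.13 (adjusted p = 3.66e-04), and that for LPS was 0.073 (adjusted p = 0.0549).

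The 2 metal transporters of one family differed in their response to TBHQ. *Slc11a1* (ENSMUSG00000026177, chromosome 1, 74414354 to 74425221, + strand), the phagosomal transporter NRAMP1, was at 44.5, 49.3 and 49.8 FPKM in control, 60.4, 61.8 and 66.1 in TBHQ, 94.7, 94.4 and 98.0 in LPS, and 94.2, 90.1 and 97.1 in PIC. It was at 146, 148 and 151 in LPS + TBHQ and 146, 140 and 148 in PIC + TBHQ. In FPKM the order was thus both combinations, both stimuli, TBHQ and control, with overlap only within each pair. As shares of counts the pairs did not overlap. LPS (0.0346% to 0.0358%) lay above PIC (0.0299% to 0.0323%), and LPS + TBHQ (0.0543% to 0.056%) above PIC + TBHQ (0.0495% to 0.0521%). *Slc11a1* rose by 0.39 log2FC with TBHQ (SE 0.063, adjusted p = 2.21e-09), 0.99 in LPS (SE 0.054, adjusted p = 3.24e-21) and 0.95 with PIC (SE 0.059, adjusted p = 4.58e-21). Pretreatment added 0.63 in LPS (SE 0.023, adjusted p = 2.64e-15) and 0.64 in PIC (SE 0.039, adjusted p = 1.80e-15).

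*Slc11a2* (ENSMUSG00000023030, chromosome 15, 100285779 to 100322953, - strand), the endosomal transporter DMT1, followed the stimuli. It was at 21.2, 21.4 and 20.7 FPKM in control and 20.1, 19.4 and 21.03 in TBHQ, which overlapped. It was at 42.8, 41.1 and 44.0 in LPS, 49.7, 50.1 and 46.9 in PIC, 40.6, 40.9 and 40.8 in LPS + TBHQ, and 46.2, 46.8 and 44.4 in PIC + TBHQ. All stimulated libraries lay above the others. In FPKM the 4 stimulated conditions did not overlap in the order PIC, PIC + TBHQ, LPS and LPS + TBHQ. As shares of counts, neighbours in this order did overlap. These were 0.0268% to 0.0286%, 0.0268% to 0.0283%, 0.026% to 0.0275% and 0.0259% to 0.0262%. *Slc11a2* rose by 1.01 log2FC with LPS (SE 0.031, adjusted p = 3.99e-22) and 1.20 with PIC (SE 0.035, adjusted p = 9.11e-25). TBHQ alone gave -0.066 (95% interval -0.14 to 0.0086, adjusted p = 0.224). Over the stimulus, pretreated cells had -0.066 in LPS (95% interval -0.14 to 0.010, adjusted p = 0.217) and -0.085 in PIC (95% interval -0.16 to -0.0093, adjusted p = 0.0777). The value in PIC passed under DESeq2 (adjusted p = 0.0292), with RLE scaling (adjusted p = 0.0360), with a mean of at least 50 counts (adjusted p = 0.0239) and without PIC library 3 (-0.13, adjusted p = 0.0103). The ratio of *Slc11a1* to *Slc11a2* FPKM was 2.27 in control, 2.25 in LPS, 1.92 in PIC, 3.11 in TBHQ and 3.64 with LPS + TBHQ.

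**Figure D2:**
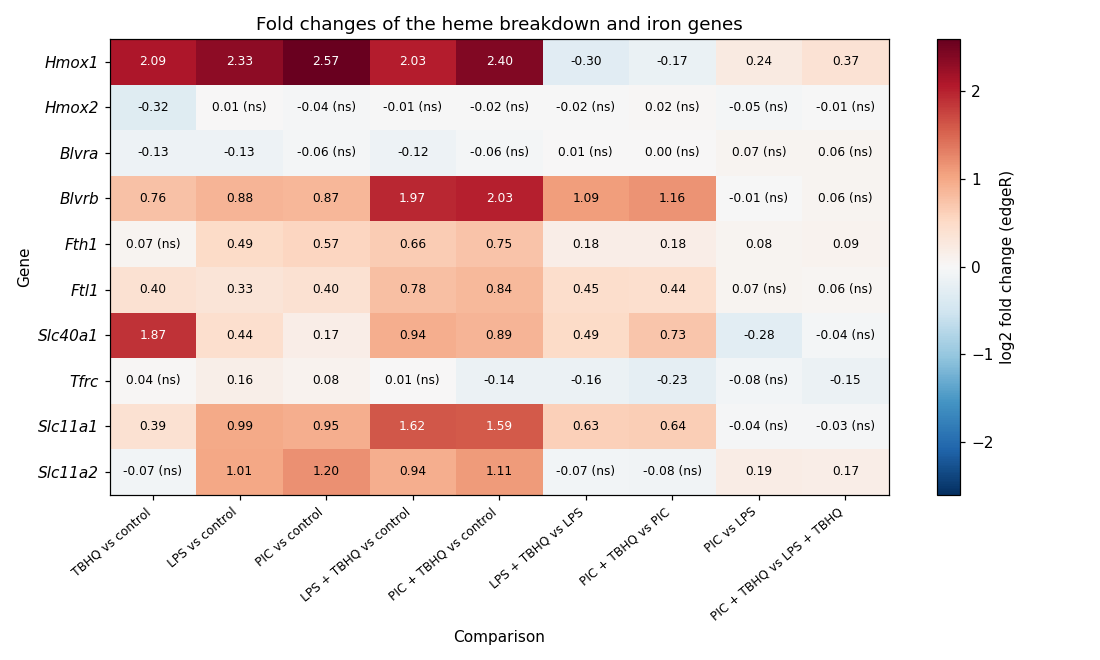
Log2 fold changes from edgeR (colour, red higher and blue lower) of the 10 genes (vertical axis) in 9 comparisons of conditions (horizontal axis), with each value printed and ns for those not passing an adjusted p of 0.05. *Blvrb*, *Fth1*, *Ftl1*, *Slc40a1* and *Slc11a1* are higher and *Hmox1* and *Tfrc* lower when TBHQ came before either stimulus.

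TBHQ before a stimulus was set against the stimulus alone, to ask what pretreatment changed. In LPS 5 of the 10 genes were higher and 2 lower, against 11.7% and 12.2% of all genes tested. In PIC 5 were higher and 2 lower, against 15.8% and 15.5%. In both, *Blvrb*, *Fth1*, *Ftl1*, *Slc40a1* and *Slc11a1* were the higher genes, and *Hmox1* and *Tfrc* the lower ones. The exporter was therefore higher and the importer receptor lower, and the ratio of *Slc40a1* to *Tfrc* FPKM was 0.0567 with LPS and 0.0887 with LPS + TBHQ.

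The stimuli were also compared with each other. PIC against LPS had 3 genes higher and 1 lower, against 14.9% and 12.8% of all genes, and PIC + TBHQ against LPS + TBHQ had 3 higher and 1 lower, against 11.9% and 8.39%. *Hmox1*, *Slc11a2* and *Fth1* were the higher genes in both, *Slc40a1* the lower one without TBHQ and *Tfrc* the lower one with it. Without TBHQ *Tfrc* was at -0.078 (adjusted p = 0.0666), which passed without LPS library 1 (-0.11, adjusted p = 0.0148) or PIC library 3 (-0.10, adjusted p = 0.0208). *Ftl1*, at 0.069 (adjusted p = 0.261), passed without PIC library 1 (0.12, adjusted p = 0.0496). *Slc11a2* was above its LPS level by 0.19 log2FC (SE 0.041, adjusted p = 1.32e-04). *Fth1* differed by 0.079 (SE 0.040, adjusted p = 0.0247), and its call was lost without LPS library 2 (0.065, adjusted p = 0.0883), PIC library 1 (0.062, adjusted p = 0.127) or PIC library 2 (0.071, adjusted p = 0.0774). It was also lost with the compared conditions only (adjusted p = 0.0793) and in both limma fits (0.0856 and 0.0962). With TBHQ its 0.086 (SE 0.017, adjusted p = 0.0194) was lost with a mean of at least 50 counts (adjusted p = 0.0548), in both limma fits (0.139 and 0.153) and without LPS + TBHQ library 1 (adjusted p = 0.0623), LPS + TBHQ library 2 (adjusted p = 0.0566) or PIC + TBHQ library 1 (adjusted p = 0.141). Scaled by total counts, the *Fth1* difference between PIC and LPS was -0.050 (adjusted p = 0.117) and that with TBHQ 0.00015 (adjusted p = 0.998), and those of *Slc11a2* were 0.060 (adjusted p = 0.199) and, with TBHQ, 0.085 (adjusted p = 0.0850). The same scaling called 4 more genes lower with PIC than with LPS, *Hmox2* (-0.18, adjusted p = 0.0129), *Blvrb* (-0.14, adjusted p = 0.0119), *Tfrc* (-0.21, adjusted p = 3.11e-06) and *Slc11a1* (-0.17, adjusted p = 9.10e-04), but it also called 4373 of all 13691 genes lower and 985 higher. With TBHQ it added *Slc40a1* (-0.13, adjusted p = 0.0348) and *Slc11a1* (-0.11, adjusted p = 0.0254) as lower, with 2582 of all genes lower and 890 higher.

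Whether TBHQ acted differently in PIC than in LPS was tested as the difference of its 2 steps. Of the 10 genes 0 were higher and 0 lower by edgeR, against 0.825% and 1.01% of all genes, and DESeq2 and limma also called 0. At an unadjusted p below 0.05, 2 genes differed, *Slc40a1* and *Hmox1*, the latter by 0.13 (SE 0.052, 95% interval 0.03 to 0.23, adjusted p = 0.177). Scaled by total counts, these 2 passed, *Hmox1* at 0.18 (adjusted p = 0.0345). Intervals for *Fth1* (-0.081 to 0.094), *Ftl1* (-0.14 to 0.12) and *Slc11a1* (-0.10 to 0.12) bounded the difference on either side of 0.

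Sequences of the iron response were looked up because iron regulatory proteins bind a hairpin in some of these transcripts. Coding transcripts of GENCODE M21 on GRCm38 were searched for the motif CNNNNNCAGTGN with 5 paired bases on each side. Of 58797 transcripts 565 (0.961%) matched, from 294 of 21901 genes (1.34%). Matches fell in 4 of the 10 genes. The search allowed no unpaired base within these pairs, so hairpins of another form would be missed. A gene without a match can thus still carry such an element. *Fth1*, *Ftl1* and *Slc40a1* had 1 each in the 5′ UTR, where binding is known to hold back translation, and *Tfrc* had 4 in the 3′ UTR, where binding is known to protect the transcript. They are printed with the loop in capitals, 5′ to 3′, to show how alike the hairpins are. Their positions are of GRCm38 and must not be mixed with the gene coordinates above, since all 10 genes start elsewhere in the files.
Fth1, chromosome 19, 9982733 to 9982759, + strand, exon 1: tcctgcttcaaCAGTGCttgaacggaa
Ftl1, chromosome 7, 45459780 to 45459806, - strand, exon 1: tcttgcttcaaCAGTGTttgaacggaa
Slc40a1, chromosome 1, 45925466 to 45925492, - strand, exon 1: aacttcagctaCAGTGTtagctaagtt
Tfrc, chromosome 16, 32631220 to 32631246, + strand, exon 19: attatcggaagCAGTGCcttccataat
Tfrc, chromosome 16, 32631599 to 32631625, + strand, exon 19: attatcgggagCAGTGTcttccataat
Tfrc, chromosome 16, 32631664 to 32631690, + strand, exon 19: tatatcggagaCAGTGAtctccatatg
Tfrc, chromosome 16, 32631711 to 32631737, + strand, exon 19: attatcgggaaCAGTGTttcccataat
A match is a description of letters, and binding was not measured.

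Promoter windows from RefSeq (GRCm38.p6, 250 bases before to 50 after the start) were searched for the core of the antioxidant response element, TGACNNNGC on either strand. It was present in 4071 of 32851 windows (12.4%). Of 12 windows of 7 genes 1 held it, that of *Blvra* on the - strand (chromosome 2, 127070407 to 127070706). *Hmox1*, *Slc40a1* and *Slc11a2* had no window. Elements outside these 300 bases could not be found, so a window without a match does not show that a gene lacks one. Binding at the match in *Blvra* was not measured.

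The rest of heme metabolism was read from 6 lists, whose counts are set beside the shares of all genes called. Of the heme synthesis list 11 of 12 genes were tested. PIC was accompanied by 1 higher and 6 lower (median log2FC -0.32, all genes -0.015), against 28.6% and 30.1% of all genes. LPS was accompanied by 1 higher and 5 lower (median -0.028), against 24.0% and 24.1%. With TBHQ before PIC, 6 were higher and 0 lower than with PIC alone (median 0.21, all genes 0.009), against 15.8% and 15.5% of all genes. Before LPS 3 were higher and 0 lower, against 11.7% and 12.2%. With a library left out, these counts went down to 3 in PIC and 1 in LPS. *Alas1*, the first and rate-limiting enzyme outside red cells, was the higher one with PIC. Its level was 5.86, 5.70 and 5.45 FPKM in control and 11.4, 11.5 and 11.7 in PIC + TBHQ, a log2FC of 1.02 (SE 0.033, adjusted p = 3.76e-17).

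Of the heme uptake and transport list 9 of 13 genes were tested. With TBHQ 5 were higher and 0 lower (median log2FC 0.17, all genes -0.000), against 14.2% and 14.8% of all genes, and 3 to 4 were called with a library left out. LPS cells had 2 and 0, against 24.0% and 24.1%, and PIC cells 2 and 2, against 28.6% and 30.1%, with as few as 2 called when a library was left out. *Slc48a1*, which carries heme out of the lysosome, was at 35.4, 37.0 and 34.8 FPKM in control and 77.7, 77.5 and 79.9 in TBHQ. It reached 103, 106 and 107 in PIC + TBHQ. Its log2FC was 1.13 with TBHQ (SE 0.030, adjusted p = 2.98e-21), 0.67 in LPS (SE 0.045, adjusted p = 1.79e-15) and 0.81 with PIC (SE 0.039, adjusted p = 3.80e-18), and pretreatment added 0.68 in LPS and 0.74 in PIC (SE 0.058 and 0.033, adjusted p = 1.81e-15 and 9.41e-17).

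Of the iron uptake and trafficking list 18 of 29 genes were tested, and the symbol *Tf* was not matched. With TBHQ 3 were higher and 9 lower (median log2FC -0.23), against 14.2% and 14.8% of all genes. LPS cells had 4 and 5 and PIC cells 6 and 7, near the shares of all genes (24.0% and 24.1%, 28.6% and 30.1%). *Lcn2*, whose protein binds bacterial siderophores, was at 17.3, 12.5 and 13.7 FPKM in control, 2.53, 1.98 and 3.18 in TBHQ, and 99.8, 91.4 and 88.5 in LPS. The TBHQ libraries were below and the LPS libraries above every control. Its log2FC was -2.50 with TBHQ (SE 0.24, adjusted p = 1.23e-19), 2.68 in LPS (SE 0.15, adjusted p = 5.32e-27) and 3.03 with PIC (SE 0.14, adjusted p = 4.26e-29), and that of pretreated cells against the stimulus alone was -0.61 in LPS and -0.53 in PIC. *Slc25a37*, the mitochondrial iron importer, rose by 1.26 with LPS (SE 0.037) and 1.87 with PIC (SE 0.044), and *Steap3*, an endosomal iron reductase, fell by 1.14 (SE 0.046) and 1.79 (SE 0.087). *Ncoa4*, which delivers ferritin to lysosomes, fell in all 5 conditions, from a log2FC of -0.34 with TBHQ to -0.49 with LPS + TBHQ. *Cp*, a ferroxidase, fell by 1.66 with TBHQ (SE 0.088, adjusted p = 4.11e-09) and rose by 0.60 with LPS (SE 0.041, adjusted p = 6.60e-04). It was low, with 274 counts in total over the control libraries and 90 over the TBHQ libraries. *Hfe*, which binds the transferrin receptor, fell by 0.90 with LPS (SE 0.12), 0.95 in PIC (SE 0.081) and 0.40 with TBHQ (SE 0.14, adjusted p = 0.0214), the last lost under DESeq2 (adjusted p = 0.0624) and without TBHQ library 1 (-0.28, adjusted p = 0.163), control library 1 (adjusted p = 0.0552) or control library 2 (adjusted p = 0.0552). *Slc39a14*, a transporter of free iron and other metals, was higher with TBHQ, by 0.35 (SE 0.085, adjusted p = 3.17e-06).

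Of the iron sensing and hepcidin control list 10 of 18 genes were tested. TBHQ cells had 2 higher and 1 lower, LPS cells 3 and 2, and PIC cells 3 and 3. These are near the shares of all genes (14.2% and 14.8%, 24.0% and 24.1%, 28.6% and 30.1%), and the count for LPS went down to 2 with a library left out. *Aco1* and *Ireb2*, which encode the iron regulatory proteins, spanned little. *Aco1* lay between 19.3 and 19.7 FPKM in control and *Ireb2* between 11.3 and 12.0. Over all 18 libraries *Aco1* lay between 19.3 and 23.5 FPKM and *Ireb2* between 10.6 and 12.9. *Aco1* had a log2FC of 0.15 with LPS + TBHQ (SE 0.026, adjusted p = 0.00895), lost without LPS + TBHQ library 3 (0.13, adjusted p = 0.0535) and when scaled by total counts (0.092, adjusted p = 0.118). Its value with PIC + TBHQ, 0.14 (SE 0.064, adjusted p = 0.0152), was lost without control library 3 (0.13, adjusted p = 0.0529) or PIC + TBHQ library 1 (0.075, adjusted p = 0.224), and was -0.0078 when scaled by total counts (adjusted p = 0.904). *Ireb2* passed once, at -0.19 in PIC + TBHQ against PIC (SE 0.034, adjusted p = 0.00103), and the difference between its steps in PIC and LPS did not pass (adjusted p = 0.623). *Smad7*, an inhibitor of hepcidin signalling, was low, at 0.317, 0.339 and 0.353 FPKM in control, and had a log2FC of 1.21 with TBHQ (SE 0.043, adjusted p = 2.55e-04) and 1.12 with PIC (SE 0.11, adjusted p = 2.74e-04), while PIC against LPS had an adjusted p of 0.0581. With TBHQ before LPS *Smad7* was lower than with LPS alone, at -0.98 (SE 0.32, adjusted p = 0.0102), the opposite direction to TBHQ alone, and this was lost without LPS library 1 (-0.88, adjusted p = 0.0519) or LPS + TBHQ library 2 (-0.72, adjusted p = 0.0846). PIC + TBHQ against LPS + TBHQ was at 1.08 (SE 0.40, adjusted p = 0.00425), and the difference of the TBHQ steps did not pass (adjusted p = 0.638).

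Iron-sulfur cluster assembly, a mitochondrial and cytosolic pathway, had all 21 listed genes tested. With PIC 3 were higher and 10 lower (median log2FC -0.16), against 28.6% and 30.1% of all genes. LPS cells had 1 and 6 and TBHQ cells 0 and 3, where the lower counts are near the shares of all genes (24.1% and 14.8%) and the higher counts below them (24.0% and 14.2%). Scaled by total counts, 12 were called with LPS, where 4558 of all 13691 genes were called lower and 2454 higher. With LPS + TBHQ 2 were higher and 10 lower than control (median -0.17), against 21.2% and 22.5% of all genes, and the 12 calls went down to 7 with a library left out. PIC + TBHQ cells had 1 and 9, against 26.4% and 26.0%.

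Of the regulators of *Hmox1* and ferritin transcription 10 of 12 genes were tested. With TBHQ 4 were higher and 3 lower, against 14.2% and 14.8% of all genes. LPS cells had 3 and 2, near the 24.0% and 24.1% of all genes, and PIC cells 5 and 3, against 28.6% and 30.1%. LPS + TBHQ cells had 6 and 3, against 21.2% and 22.5%, and PIC + TBHQ cells 6 and 2, against 26.4% and 26.0%. *Nfe2l2* was slightly lower than control in all conditions but PIC + TBHQ, where its call was not secure, with a log2FC of -0.14 with TBHQ (SE 0.026, adjusted p = 0.00771) and -0.31 with LPS (SE 0.048, adjusted p = 1.52e-07). Its call with PIC + TBHQ (adjusted p = 0.0482) was lost under DESeq2 (adjusted p = 0.0805), with RLE scaling (0.0556), with no filter on low counts (0.110), with a mean of at least 50 counts (0.0527), in both limma fits (0.0621 and 0.0630), and without control library 1 or 2 or any PIC + TBHQ library. *Bach1*, the repressor that heme displaces from *Hmox1*, was higher with TBHQ by 0.50 (SE 0.026, adjusted p = 5.78e-09), with LPS + TBHQ by 0.39 (SE 0.036, adjusted p = 3.53e-07) and with PIC + TBHQ by 0.29 (SE 0.062, adjusted p = 3.97e-05). *Maff*, a small partner protein of both, was at 2.06, 1.51 and 1.73 FPKM in control, 9.14, 7.17 and 8.87 in LPS, and between 14.2 and 16.1 in PIC. Its log2FC was 2.24 with LPS (SE 0.17, adjusted p = 4.68e-18) and 3.08 with PIC (SE 0.14, adjusted p = 2.79e-23), and pretreated cells had -0.47 and -0.48 beside the stimulus alone. *Epas1*, a hypoxia-inducible factor, was low, with 82 counts in total over the control libraries and 34 over the PIC libraries. It passed with PIC alone, at -1.16 (SE 0.18, adjusted p = 0.00916), and PIC against LPS had an adjusted p of 0.239.

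The genes most like each member were found by Pearson correlation of log2 CPM (counts scaled by library depth) over the 18 libraries, among 10450 genes. This was done for the 5 members whose condition means spanned at least 1 on that scale. The 18 libraries fall into 6 conditions that all these genes share, and no p is given. Nearest to *Hmox1* were *Kif3c* and *Fosl1* (both r = 0.97) and *Nrp2* (0.96). Nearest to *Blvrb* were *Cat* and *Serpinb1b* (both 0.98) and *Afg3l2* (0.97), with *Ftl1* at rank 4 (0.97) and *Slc11a1* at rank 9 (0.95). *Slc40a1* was nearest to *Osgin1* (0.96), *Gclc* (0.95) and *Fbf1* (0.94), and *Slc11a1* to *Tmem120a* (0.98), *Esd* (0.97) and *Abcd4* (0.97). *Slc11a2* was nearest to *Slc15a3* (0.997), *Fam214b* (0.99) and *Irak3* (0.99). Among the members themselves, r was 0.83 between *Slc11a1* and *Slc11a2* and 0.37 between *Hmox1* and *Slc40a1*.

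These values describe transcripts in 1 cell line at 1 time per treatment. Protein, heme and iron were not analysed here, and ferritin, ferroportin and the transferrin receptor are also controlled after transcription.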

How the data were processed

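Poly(A) RNA of 18 libraries (6 conditions, 3 each, grouped by the labels) was sequenced. Per the submitters' processing notes, HISAT2 2.0.5, StringTie 1.3.3b and featureCounts 1.5.0-p3 were used. The authors deposited raw counts per gene and FPKM, which hold a factor of 0.943 to 1.12 per library beyond gene length and total counts. The labels name the build as GRCm38/mm39, and 50588 of 52073 gene identifiers shared with a GRCm38 annotation start elsewhere in the files. Counts were tested with edgeR 4.0.16 in R 4.3.3 (filterByExpr, TMM, quasi-likelihood, 1 coefficient per condition, Benjamini-Hochberg). SE came from log2 CPM with a prior count of 2, and 95% intervals from limma 3.58.1. At 14423390 to 18851626 counts per library, the common dispersion was 0.00192. Condition pairs were compared in 10 ways. Alternatives were DESeq2 1.42.0, limma on log2(FPKM + 1) and log2(FPKM + 0.1), other scalings, filters, thresholds and samples, ferritin copies added, the replicate number as a block, and each library left out.

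All 10 members were named. A list gene was named when its adjusted p was below 0.05 and its absolute log2FC above 1 in any comparison with a mean of at least 10 counts, at most 5 per list, with *Nfe2l2*, *Bach1*, *Aco1*, *Ireb2*, *Alas1*, *Ncoa4*, *Slc39a14* and *Slc48a1* always named. The 3 most correlated genes with a mean of at least 50 counts were named per member. Members and lists were chosen with earlier results of these data known. Tables and figures were made with Python 3.11.15, pandas 2.3.3, numpy 2.4.6 and matplotlib 3.10.9.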

Additional observations from a re-analysis of the deposited data

Results flagged for a closer look

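In 2 of the list genes the TBHQ step differed between the stimuli by edgeR's test of the difference itself, with adjusted p over all genes. Of all genes tested, 0.825% were called higher and 1.01% lower for this difference. Both list genes were higher. They were 1 of 18 tested in the iron uptake and trafficking list and 1 of 10 tested regulators of *Hmox1* and ferritin transcription. The other lists had 0 higher and 0 lower. No result about the lists is read from so few calls. Both genes are outside the rule for naming genes and were chosen after their values were seen. *Cyb561a3*, a lysosomal ferric reductase, had a TBHQ step of -0.20 log2FC in LPS and 0.36 in PIC, a difference of 0.57 (adjusted p = 0.0272). *Keap1*, whose protein holds back NRF2, had -0.02 in LPS and 0.29 in PIC, a difference of 0.31 (adjusted p = 0.0215). With a library left out, the number of genes called for this difference in the list of each went from 1 to between 0 and 2, so that each call was lost in at least 1 case. With limma 0 genes of either list were called, and with DESeq2 0 of the iron uptake list, which holds *Cyb561a3*.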

How the results depend on the processing

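The 100 log2FC values of the members were recomputed under the alternatives, which gave 1780 values. Of these 1539 kept direction and side of the threshold, 129 no longer passed, 27 newly passed and 85 changed sign, 82 of them passing in neither setting and at most 0.0778 in absolute size. The alternatives for the list genes were added after seeing the data: of 1525 values 1327 kept direction and side, 197 no longer passed and 1 changed sign, and of 1056 list counts 857 stayed within 1.5 times. The cause of these changes was not tested unless stated.

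Scaling by total counts moved the median log2FC of all genes to -0.232 for PIC, -0.15 for PIC + TBHQ and -0.138 for PIC against LPS, and changes there are relative to these medians. The share of calls that were higher went from 49.8% to 35.0% for LPS, 48.7% to 26.4% for PIC, 48.4% to 36.1% for LPS + TBHQ, 50.4% to 30.0% for PIC + TBHQ, 48.9% to 59.5% for LPS + TBHQ against LPS, 50.6% to 70.3% for PIC + TBHQ against PIC, 53.7% to 18.4% for PIC against LPS, 58.5% to 25.6% for PIC + TBHQ against LPS + TBHQ and 45.0% to 76.1% for the difference of the TBHQ steps. The last was 29.1% under DESeq2, 32.5% under limma on log2(FPKM + 1), 32.5% without LPS library 2 and 32.4% without PIC library 2. Under total counts these log2FC values changed sign: *Hmox2* LPS -0.0778 and LPS + TBHQ against LPS 0.0093, *Slc40a1* PIC -0.0518, *Tfrc* PIC -0.135 and LPS + TBHQ -0.0577, *Blvra* PIC against LPS -0.0607 and PIC + TBHQ against LPS + TBHQ -0.0206, *Blvrb* PIC + TBHQ against LPS + TBHQ -0.0230, *Fth1* PIC against LPS -0.0503, *Ftl1* PIC against LPS -0.0604 and PIC + TBHQ against LPS + TBHQ -0.0279, and *Aco1* PIC + TBHQ -0.00785. The difference of the TBHQ steps became 0.0401 for *Blvra*, 0.0325 for *Ftl1* and 0.0249 for *Slc11a2*, and 2 members were called for it.

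Other sign changes lay near 0. *Hmox2* LPS + TBHQ was 0.0028 under DESeq2, 0.0040 with the compared conditions only, 0.0017 with RLE, 0.0105 with no filter, 0.0118 with a mean of 50 counts, 0.0047 with limma on log2(FPKM + 1) and 0.0049 with + 0.1. *Blvra* PIC + TBHQ against PIC was, in that order, -0.0115, -0.0023, -0.0145, -0.00099, -0.0177, -0.0102 and -0.0103. The difference of the TBHQ steps was -0.0069, -0.0067, -0.0084, -0.0104, -0.0063, -0.0060 and -0.0060 for *Fth1* (-0.0081 with ferritin copies added) and -0.0048, -0.0044, -0.0061, -0.0084, -0.0039, -0.0035 and -0.0034 for *Slc11a1*. *Blvra* LPS + TBHQ against LPS was -0.0011 with a mean of 50 counts.

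With a library left out, sign changes occurred in 15 values, whose ranges were, for *Hmox2*, -0.0421 to 0.0504 (LPS), -0.0659 to 0.0387 (LPS + TBHQ), -0.0677 to 0.0282 (PIC + TBHQ), -0.0757 to 0.0288 (LPS + TBHQ against LPS), -0.0074 to 0.0641 (PIC + TBHQ against PIC), -0.0545 to 0.0501 (PIC + TBHQ against LPS + TBHQ) and -0.0039 to 0.1006 (difference of the TBHQ steps). They were -0.0093 to 0.0182, -0.0250 to 0.0136 and -0.0320 to 0.0110 for *Blvra* (TBHQ step in LPS, step in PIC, difference), -0.0444 to 0.0132 for *Blvrb* (PIC against LPS), -0.0061 to 0.0201 for *Tfrc* (LPS + TBHQ), and for the difference -0.0406 to 0.0140 for *Fth1*, -0.0757 to 0.0286 for *Ftl1* and -0.0338 to 0.0282 for *Slc11a1*.

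Fold limits lower the counts by construction. At FDR below 0.01 and absolute log2FC above 2, genes (members) called were 26 (1) for TBHQ, 224 (1) for LPS, 489 (1) for PIC, 132 (1) for LPS + TBHQ, 295 (2) for PIC + TBHQ, 53 (0) for the TBHQ step in LPS, 41 (0) for that in PIC, 42 (0) for PIC against LPS, 34 (0) for PIC + TBHQ against LPS + TBHQ and 0 for the difference. At FDR below 0.05 and above 1, they were 273 (2), 1022 (2), 1806 (2), 721 (3), 1268 (4), 254 (1), 326 (1), 252 (0), 180 (0) and 19. The difference called 251 genes by edgeR, 380 with no filter, 147 with limma on log2(FPKM + 0.1) and 160 to 354 with a library left out (160 without LPS + TBHQ library 2), and 0 to 1 members (1 without PIC library 3).

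Replicate numbers were not used as pairs: over 45 same-numbered pairs the correlation of deviations was -0.072 to 0.142 (median 0.026, and -0.011 between other numbers), and 11 of 18 libraries correlated best with their own number. With the replicate block, genes called went from 3973 to 4036 for TBHQ and from 251 to 274 for the difference, members called from 7 to 8 for TBHQ (*Fth1*, adjusted p = 0.0409), and no other member call changed.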
